A study of Mus musculus with 9 samples.

Results

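Deletion of Vhl in the early proximal tubule of mice without diabetes was examined in RNA of whole kidney cortex. The comparison rests on 5 of the 9 libraries of the series, the 2 libraries of VHLΔPT and the 3 libraries of its control group (con), and was made over 14437 of the 18657 genes in the deposited table. VHLΔPT mice were Vhl fl/fl;Sglt2-Cre and con mice were Vhl fl/fl without Cre, so both groups carried the floxed allele. All mice were described as males of a mixed C57BL/6 and FVB background. They were 12 weeks old when citrate buffer was injected on 2 consecutive days, and the cortex was taken 10 weeks later. VHLΔPT/STZ (Vhl fl/fl;Sglt2-Cre) and con/STZ (Vhl fl/fl), with 2 libraries each, received streptozotocin (STZ, 100 mg/kg), a toxin of pancreatic beta cells, in place of the buffer. Each library held pooled RNA of 2 mice, so the spread given here lies between pools. The Sglt2 promoter drives Cre in the early (S1 and S2) segments, the deletion is mosaic, and the cortex also holds all other cells of the nephron, vessels and interstitium.

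The von Hippel-Lindau protein is the substrate receptor of a ubiquitin ligase. It binds the alpha subunits of hypoxia-inducible factor (HIF) after prolyl hydroxylases of the Egln family have modified them in the presence of oxygen, and the bound subunits are degraded by the proteasome. Without it HIF accumulates regardless of oxygen, pairs with Arnt and activates genes of glycolysis, angiogenesis, pH control and mitochondrial turnover. Because the control acts on HIF protein, the mRNA of the subunits is not where this regulation is known to lie. The comparison addresses which transcripts of the cortex differ when this pathway is opened in part of the proximal tubule.

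In VHLΔPT, 351 of the 14437 genes tested rose (2.43%) and 95 fell (0.658%) at an adjusted p under 0.05 (limma). In all 446 the VHLΔPT and con libraries did not overlap, which was the case for 47.4% of all genes tested. The median log2 change was 0.68 among the genes that rose, -0.56 among those that fell and -0.02 among all genes tested. The change exceeded 2-fold in 49 of the rising and 7 of the falling genes. At an unadjusted p under 0.05, 14% of the genes were higher and 13.2% lower. The smallest adjusted p was 0.0329, so all calls lay close to the threshold. The calls ended (0 genes) without either VHLΔPT library, con 1, con 3 or either con/STZ library, whereas 2112 to 3832 genes then had an unadjusted p under 0.05. Without either VHLΔPT/STZ library, which enters only through the common estimate of the spread, 766 and 771 genes passed. The calls also ended when the trend of the values with gene length was removed (0 genes, 2594 at an unadjusted p under 0.05).

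Gene length moved with these changes. Across genes, log10 length (merged exon bases) correlated with each library's deviation from the 9-library mean at 0.212 and 0.188 in VHLΔPT, against -0.26, -0.19 and -0.455 in con. Median length was 10062.5 bases among rising genes and 1864 bases among falling genes, against 4308 bases for all genes tested. With the genes ordered by length into 10 bins of equal size, the median log2 change was -0.37 in the bin of the shortest genes and 0.36 in that of the longest. The longest bin held 188 rising and no falling genes, and the shortest bin held 1 rising and 32 falling genes. With the length trend removed, 342 of 348 rising genes with a known length stayed above 0 (median 0.38) and all 95 falling genes stayed below 0 (median -0.38), although none passed. Values with the trend removed are given below for many of the groups of genes, but not for every group or gene. The part of length in the changes was not tested further.

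**Figure D1:**
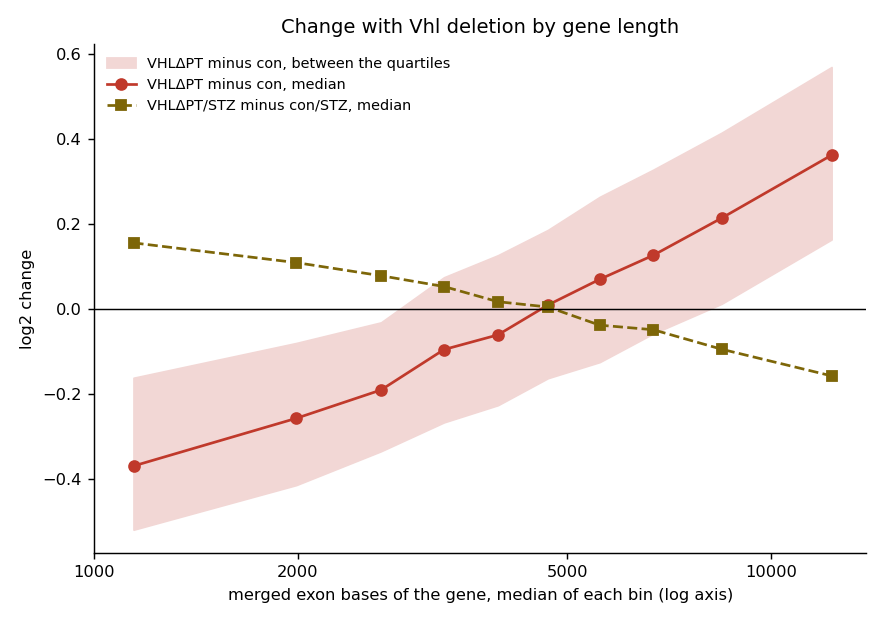
Median log2 change in 10 equal bins of the genes tested, ordered by length, against the median gene length of each bin in merged exon bases (log axis), for VHLΔPT minus con (circles, with the range between the quartiles shaded) and VHLΔPT/STZ minus con/STZ (squares). The medians go up with length in VHLΔPT minus con, from -0.37 to 0.36, and down in VHLΔPT/STZ minus con/STZ, from 0.16 to -0.16.

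Vhl itself did not pass the test. Vhl (ENSMUSG00000033933, GRCm38 chromosome 6 from 113623959 to 113631633) had quantile-normalized counts of 434 and 469.8 in VHLΔPT, against 555, 522 and 528 in con. Both VHLΔPT libraries lay below every con library, with a log2 change of -0.24 (standard error 0.09, adjusted p = 0.145). These values count all exons over all cortical cells, whereas the deletion concerns part of the gene in part of the proximal tubule cells. Of the other members of the ligase complex, Rbx1, the RING subunit that recruits the ubiquitin-conjugating enzyme, had a log2 difference of -0.39 (adjusted p = 0.0725) and Elongin B (listed as Tceb2) of -0.50 (adjusted p = 0.0843). For Elongin C (Tceb1) it was -0.28 and for the scaffold Cul2 0.15. None of these 5 genes passed, and their median was -0.28, or -0.17 with the length trend removed.

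Hif1a was the 1 gene of 9 HIF subunits and hydroxylases that passed (11.1%, against 2.43% of all genes that rose). Its normalized count was 1646 and 2094 in VHLΔPT, against 1298, 1261 and 1270.1 in con. All VHLΔPT values lay above con, and the 2 VHLΔPT libraries differed more from each other than the con libraries did. The fit gave a log2 change of 0.54 with a standard error of 0.12 (adjusted p = 0.0488), or 0.43 with the length trend removed. The study named Hif1a from these libraries, so its call is not independent of that choice. Epas1, which encodes HIF-2 alpha, had 3814 and 3174 in VHLΔPT, against 3114, 3249 and 2726 in con, and overlapped. Egln2, a prolyl hydroxylase, had 1745 and 1741 in VHLΔPT, against 2112, 2000.4 and 2105 in con, with an adjusted p of 0.0893. Egln3, a prolyl hydroxylase that is itself a HIF target, overlapped between the groups (625 and 449 in VHLΔPT, against 489, 356 and 423 in con).

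Promoters of 4 genes of this axis are shown because they carry the core motif of HIF-responsive elements and their transcripts differed in how they behaved. Ankrd37 and the lactate exporter Slc16a3 had the largest positive changes among the HIF target and glycolysis genes, Bnip3, a receptor for mitophagy, had a change near 0, and Hif1a is the subunit that passed. The windows hold 250 bases before and 50 after the transcription start (RefSeq, GRCm38.p6, 5′ to 3′ on the strand of the gene). Capitals mark ACGTG or GCGTG on either strand.
Ankrd37: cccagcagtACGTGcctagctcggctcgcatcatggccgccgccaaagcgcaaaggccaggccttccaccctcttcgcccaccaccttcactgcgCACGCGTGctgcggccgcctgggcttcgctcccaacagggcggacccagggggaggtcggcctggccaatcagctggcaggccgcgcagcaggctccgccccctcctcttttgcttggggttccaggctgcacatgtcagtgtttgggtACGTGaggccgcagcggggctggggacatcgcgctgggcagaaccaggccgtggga
Slc16a3: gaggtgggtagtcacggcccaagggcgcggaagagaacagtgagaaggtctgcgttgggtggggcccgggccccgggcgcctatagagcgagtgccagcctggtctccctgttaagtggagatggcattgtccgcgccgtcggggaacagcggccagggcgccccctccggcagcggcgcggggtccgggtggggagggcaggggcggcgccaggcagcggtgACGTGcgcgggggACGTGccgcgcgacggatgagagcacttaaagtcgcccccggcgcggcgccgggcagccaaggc
Bnip3: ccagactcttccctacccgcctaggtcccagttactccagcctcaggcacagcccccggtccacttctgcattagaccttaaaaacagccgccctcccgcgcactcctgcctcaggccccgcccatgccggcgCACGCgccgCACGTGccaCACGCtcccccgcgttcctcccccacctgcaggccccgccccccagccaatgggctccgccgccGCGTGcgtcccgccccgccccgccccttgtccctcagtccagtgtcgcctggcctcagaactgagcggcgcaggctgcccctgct
Hif1a: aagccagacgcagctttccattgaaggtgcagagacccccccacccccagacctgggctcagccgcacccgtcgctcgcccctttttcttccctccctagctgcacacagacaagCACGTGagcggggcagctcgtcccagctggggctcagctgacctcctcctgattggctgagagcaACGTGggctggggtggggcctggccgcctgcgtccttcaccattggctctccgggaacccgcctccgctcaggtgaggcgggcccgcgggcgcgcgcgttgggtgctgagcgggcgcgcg
The Ankrd37 window (chr8:45999801-46000100, minus strand) held 4 matches, of which a pair on opposite strands overlap. The Slc16a3 window (chr11:120948817-120949116, plus strand) held 2 matches, both ACGTG. The Bnip3 window (chr7:138909457-138909756, minus strand) held 5 and the Hif1a window (chr12:73907617-73907916, plus strand) 3 matches, and both contain a CACGTG, in which ACGTG lies on both strands. Over all 32851 windows of this length 43.77% held a match. Of the genes tested, 10853 had at least 1 window and 65.27% of them a match in at least 1 window. The share was 26 of 28 among the HIF targets with a window, 70.8% of 274 among the rising genes and 66.67% of 75 among the falling genes. A match describes the letters of the window and not binding.

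None of the 38 HIF target genes tested passed in either direction (limma), and at an unadjusted p under 0.05, 7 were higher (18.4%, against 14% of all genes) and 3 lower (7.89%, against 13.2%). Their median log2 change was 0.12, against -0.02 over all genes, or 0.16 with the length trend removed. Ankrd37, an ankyrin repeat protein induced by hypoxia, had 173 and 95.0 in VHLΔPT, against 31.1, 35.0 and 62.8 in con. All con values lay below VHLΔPT, with a log2 change of 1.62 (standard error 0.60, adjusted p = 0.13). Vegfa, the vascular endothelial growth factor, had 4773 and 4138 in VHLΔPT, against 3972, 3730.1 and 3206 in con, without overlap (log2 change 0.30, standard error 0.11, adjusted p = 0.144). Car12, a membrane carbonic anhydrase, had 9607 and 8179.7 in VHLΔPT, against 5773, 7419 and 5967 in con (0.48, adjusted p = 0.0758).

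Of the 38 targets 14 had no overlap between the groups (36.8%, against 47.4% of all genes), 9 of them above con, among them Ero1l with 651 and 627 in VHLΔPT, against 470.3, 466 and 491 in con (0.42, adjusted p = 0.0772). Ero1l encodes an oxidase of the endoplasmic reticulum. Other targets overlapped with con or lay below it. The glucose transporter Slc2a1 had 1022 and 1263 in VHLΔPT, against 1019, 976 and 1140.3 in con, with a log2 change of 0.12 (standard error 0.12, adjusted p = 0.553). Bnip3 had 2057 and 1814 in VHLΔPT, against 1931, 1848 and 2023 in con, with a standard error of 0.09 on its log2 change. The carbonic anhydrase Car9 overlapped too, with 1016 and 556 in VHLΔPT, against 665, 724 and 530.1 in con. On the low side, Ddit4, an inhibitor of mTORC1, had 979 and 841 in VHLΔPT, against 2868, 1696 and 1282 in con (-1.02, adjusted p = 0.071). Angptl4, an inhibitor of lipoprotein lipase, had 1883 and 1633 in VHLΔPT, against 6881, 2817 and 3787 in con (-1.26, adjusted p = 0.0773). Hmox1, heme oxygenase, had 1159 and 1273 in VHLΔPT, against 8099, 1397 and 1516 in con, where con 1 stood apart, and its log2 difference was -1.09, or -0.26 without con 1. Epo was low in all libraries, with 10.0 and 30.2 in VHLΔPT, against 17.8, 12.7 and 6.11 in con.

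**Figure D2:**
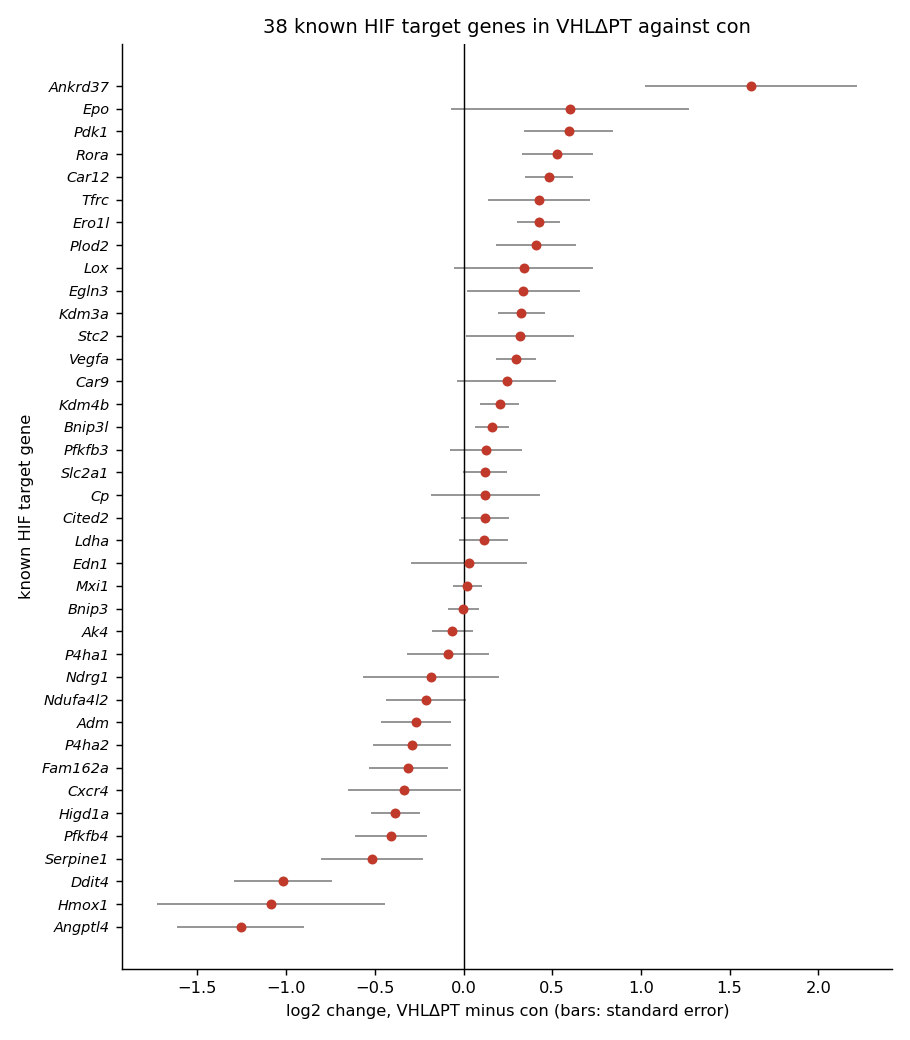
Log2 change of VHLΔPT minus con for the 38 HIF target genes tested, with bars for the standard error from the fit over 9 libraries. The points run from -1.26 (Angptl4) to 1.62 (Ankrd37) with a median of 0.12, and none passed at an adjusted p under 0.05.

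Among genes of energy metabolism no list had a member that passed. Of 19 glycolysis genes 3 were higher at an unadjusted p under 0.05, a share of 15.8% near the 14% of all genes, and none was lower, with a median of 0.07. Slc16a3, which exports lactate, had 182 and 126 in VHLΔPT, against 39.8, 20.9 and 77.6 in con, without overlap (log2 change 1.88, standard error 0.54, adjusted p = 0.0796). Pfkp, the platelet type of phosphofructokinase, had 2707 and 2484 in VHLΔPT, against 1462, 1547 and 1945 in con (0.66, adjusted p = 0.146). Pdk1, which inhibits pyruvate dehydrogenase, had 1304 and 976 in VHLΔPT, against 572, 796 and 915 in con (0.59, adjusted p = 0.167). Of 7 gluconeogenesis genes (median -0.20) 1 was lower (14.3%, against 13.2% of all genes) and none higher (14% of all genes) at an unadjusted p under 0.05. Of 22 genes of fatty acid oxidation (median -0.18) 5 were lower (22.7%, against 13.2% of all genes) and 1 higher (4.55%, against 14%) by that measure. Pdk4, a kinase of pyruvate dehydrogenase that is induced by fasting, had 894 and 1027 in VHLΔPT, against 3804, 1690.0 and 1419.7 in con (-1.12, adjusted p = 0.0926).

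The 12 largest rises among genes with a mean of at least 50, leaving out predicted gene models, lay in genes of different roles, and none of them is among the listed HIF targets. Zfp871, a zinc finger protein, had 744 and 531 in VHLΔPT, against 132, 162 and 62.8 in con, a log2 change of 2.50 (standard error 0.41, adjusted p = 0.036). It belongs to a large multigene family, so its reads may be split among related genes. Lcor, a corepressor of nuclear receptors, had 169.7 and 151 in VHLΔPT, against 29.9, 51.2 and 29.2 in con (2.14, standard error 0.31, adjusted p = 0.0329). In both genes every VHLΔPT library lay far above every con library.
Hipk2, a kinase that phosphorylates p53, had 1041 and 901 in VHLΔPT, against 281, 309 and 188 in con (1.93, adjusted p = 0.0329). Lnpep, the insulin-regulated aminopeptidase that travels with glucose transporter vesicles, had 605 and 507 in VHLΔPT, against 187, 155 and 112 in con (1.90, adjusted p = 0.0329). Atp7a, the copper-transporting ATPase, had 379 and 327 in VHLΔPT, against 121, 147 and 80.1 in con (1.64, adjusted p = 0.0344). In each of these the lowest VHLΔPT library was at least 2-fold above the highest con library.
Klhl11, an adaptor of cullin ubiquitin ligases with a short transcript (2393 exon bases), had 74.5 and 60.0 in VHLΔPT, against 22.2, 23.2 and 19.7 in con (1.58, adjusted p = 0.0366). Its change was 1.76 with the length trend removed, larger than without. Tiam1, an exchange factor for the GTPase Rac1, had 202 and 193 in VHLΔPT, against 58.8, 96.4 and 72.4 in con (1.40, adjusted p = 0.0338). Lmbrd2, Zc3h11a, Pdpr, Atad2b and Zfp971 completed the 12, with log2 changes of 1.90, 1.46, 1.44, 1.33 and 1.29. With the length trend removed the 12 changes lay between 0.91 (Atad2b) and 2.18 (Zfp871).

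**Figure D3:**
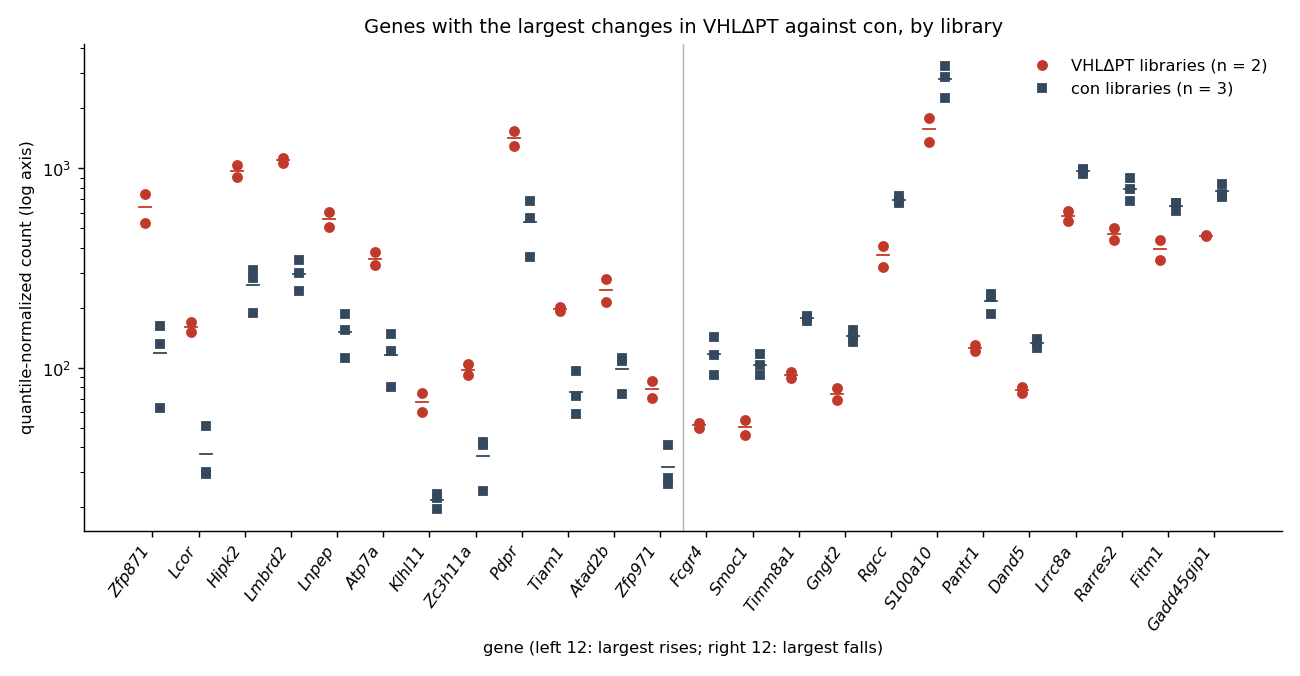
Quantile-normalized counts (log axis) of the 12 genes with the largest rises and the 12 with the largest falls, for the 2 VHLΔPT libraries (circles) and the 3 con libraries (squares), with a line at each mean. In every gene shown the groups are apart, from Zfp871 (531 and 744 in VHLΔPT, against 62.8 to 162 in con) to Gadd45gip1 (459.7 and 462 in VHLΔPT, against 717 to 839.9 in con).

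The 12 largest falls chosen by the same rule lay between -1.15 and -0.73 on the log2 scale. Fcgr4, an activating Fc receptor of monocytes and macrophages, had 52.7 and 50.1 in VHLΔPT, against 143, 91.9 and 116 in con (log2 change -1.15, standard error 0.23, adjusted p = 0.0458). Smoc1, a secreted calcium-binding matrix protein, had 46.1 and 54.8 in VHLΔPT, against 92.1, 117 and 103 in con (-1.03, standard error 0.21, adjusted p = 0.0474). Rgcc, a regulator of the cell cycle, had 322 and 410.0 in VHLΔPT, against 729, 672 and 686 in con (-0.93, standard error 0.14, adjusted p = 0.0329). The con libraries of Rgcc lay within a narrow range and well above VHLΔPT.
Lrrc8a, the obligatory subunit of volume-regulated anion channels, had 615 and 546 in VHLΔPT, against 981, 942 and 998 in con (-0.75, adjusted p = 0.0329), and its change was -0.75 with the length trend removed as well. Timm8a1 and Gadd45gip1, which act in mitochondrial protein import and in the mitochondrial ribosome, fell by 0.95 and 0.73 on the log2 scale. Gngt2, S100a10, Pantr1, Dand5, Rarres2 and Fitm1 completed the 12, with changes between -0.94 and -0.73.

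Genes that modify histones held rises and no falls. Of 17 histone modifiers that the study picked, 12 rose and none fell, with a median log2 change of 0.80, or 0.44 with the length trend removed. Because the study picked them from these very libraries, their direction is not independent evidence. Their median length was 10730 bases. Kmt2c, a histone H3 lysine 4 methyltransferase, had 1262 and 1044 in VHLΔPT, against 563, 705 and 471 in con (1.00, adjusted p = 0.0366). Ep300, an acetyltransferase and coactivator of HIF, had 1645 and 1316 in VHLΔPT, against 811, 932 and 733 in con (0.84, adjusted p = 0.0375). Ogt, which attaches N-acetylglucosamine to proteins, had 3081 and 3168 in VHLΔPT, against 1733, 1965 and 1646 in con (0.81, adjusted p = 0.0338). In each the lowest VHLΔPT library lay above every con library.
Wider lists were counted as well, but they include genes that the study picked from these libraries. Among the rises counted next these were Kmt2c, Kmt2a, Ash1l, Kdm1b, Kdm5a, Kat6a and Ep300, so the shares are not independent of that choice. Over all genes 2.43% rose and 0.658% fell, so lists of this size would hold few falls in any case. Of 30 histone methyltransferases 4 rose (13.3%) and none fell (median 0.32, or 0.06 with the length trend removed), with Kmt2c, Kmt2a and Ash1l among them. Of 21 demethylases 3 rose (14.3%: Kdm1b, Kdm5a and Kdm7a, by 0.70, 0.70 and 0.58) and none fell, with a median of 0.34, or 0.12 with the trend removed. Of 40 acetylation and remodeling genes 3 rose (7.5%) and none fell, with a median of 0.31, or 0.01 with the trend removed.

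Of 10 genes that the study grouped for preconditioning, 1 fell (10%, against 0.658% of all genes) and 9 had positive changes that did not pass. The median of the 10 was 0.73, or 0.44 with the length trend removed. Bmp4, a growth factor of the TGF-beta family, had 929 and 837 in VHLΔPT, against 1477, 1178 and 1375 in con (-0.60, standard error 0.11, adjusted p = 0.0372). Skil, a repressor of SMAD signaling, had 685 and 762 in VHLΔPT, against 473, 415 and 372 in con, with an adjusted p of 0.0501. Prox1, a homeobox factor of lymphatic endothelium, had 168 and 149 in VHLΔPT, against 55.1, 78.1 and 100.3 in con (1.06, adjusted p = 0.0558). In all 10 the groups did not overlap, as in 47.4% of all genes. This list too was chosen by the study on these libraries.

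Among proximal tubule genes a few transporters and endocytosis genes rose, and no marker of the segment passed. Of 22 transport genes 2 rose (9.09%, against 2.43% of all genes). The sodium-hydrogen exchanger Slc9a3 had 2188 and 2009 in VHLΔPT, against 953, 1298 and 652 in con (log2 change 1.17, standard error 0.25, adjusted p = 0.0474), or 1.09 with the length trend removed. The basolateral sodium bicarbonate cotransporter Slc4a4 had 25686 and 26408 in VHLΔPT, against 14788, 16462 and 13492 in con (0.81, standard error 0.12, adjusted p = 0.0329), or 0.50 with the length trend removed. Both carriers take part in bicarbonate reabsorption. The study named Slc9a3 from these libraries, so the share is not independent of that choice.
Of 14 endocytosis genes 3 rose (21.4%, against 2.43% of all genes): Pik3c2a, a phosphoinositide kinase, by 1.19, Eea1, a tether of early endosomes, by 0.72, and the clathrin heavy chain Cltc by 0.68 on the log2 scale. With the length trend removed their changes were 0.87, 0.44 and 0.45, and the median of the list was 0.12 in place of 0.37. The study named these 3 genes from these libraries, so the share is not independent of that choice. The receptors megalin (Lrp2) and cubilin (Cubn) had log2 differences of 0.69 and 0.57 with adjusted p of 0.055 and 0.0673, and both are encoded by long genes, whose changes were 0.24 and 0.15 with the trend removed. None of the 11 markers of S1 and S2 passed, and their median was 0.19, or 0.15 with the length trend removed. At an unadjusted p under 0.05, 3 of them were higher (27.3%, against 14% of all genes) and none lower (13.2% of all genes). Their summed level was 344833 and 412066 in VHLΔPT, against 307541 to 342998 in con, and none was under 1 in any library. In pooled tissue, fewer cells of a type and less RNA per cell cannot be told apart.

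Genes of the basement membrane and of cell adhesion rose in part. Of 22 basement membrane genes 6 rose (27.3%, against 2.43% of all genes) and none fell (0.658% of all genes), and all 22 changes were positive (median 0.52, or 0.29 with the length trend removed). Col4a3, a chain of the type IV collagen of the glomerulus, had 5734 and 6896 in VHLΔPT, against 3638, 3744 and 2617 in con (0.93, adjusted p = 0.0364). Hspg2, the proteoglycan perlecan, rose by 0.81 and Col4a5 by 0.74 on the log2 scale. The study named Col4a3 and Col4a5 from these libraries, so the share of the list is not independent of that choice. Col4a6 had the largest change of the list, with 51.1 and 48.2 in VHLΔPT, against 2.89, 23.2 and 4.11 in con, and did not pass (2.69, standard error 0.97, adjusted p = 0.125).
Of 19 integrins and adhesion genes 3 rose (15.8%), of which Itgb8, an integrin that activates latent TGF-beta, had 3335 and 3753 in VHLΔPT, against 1435, 1812 and 1279.9 in con (1.24, adjusted p = 0.0329). The median of this list was 0.21, or 0.06 with the length trend removed. The tight junction scaffold Tjp1 had 1229.9 and 1284 in VHLΔPT, against 744, 727 and 610.1 in con (0.86, adjusted p = 0.0329), the only one of 14 tight junction genes to pass (7.14%, against 2.43% of all genes). The study named Itgb8, Tjp1 and Slc12a1 from these libraries, so the calls of these genes are not independent of that choice. The nuclear long noncoding RNA Malat1 had 2553 and 2063 in VHLΔPT, against 881, 1108 and 907 in con (1.26, adjusted p = 0.0474). Slc12a1, the cotransporter of the thick limb, rose by 0.59, beside a summed level of 6 thick limb markers of 111856 and 130449 in VHLΔPT, against 90674 to 101749 in con. Pdgfra, a receptor of fibroblasts, rose by 0.63 while the summed level of 5 fibroblast markers was 4384 and 7943 in VHLΔPT, against 3161 to 4331 in con, and the part of these cells in either result was not tested.

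**Figure D4:**
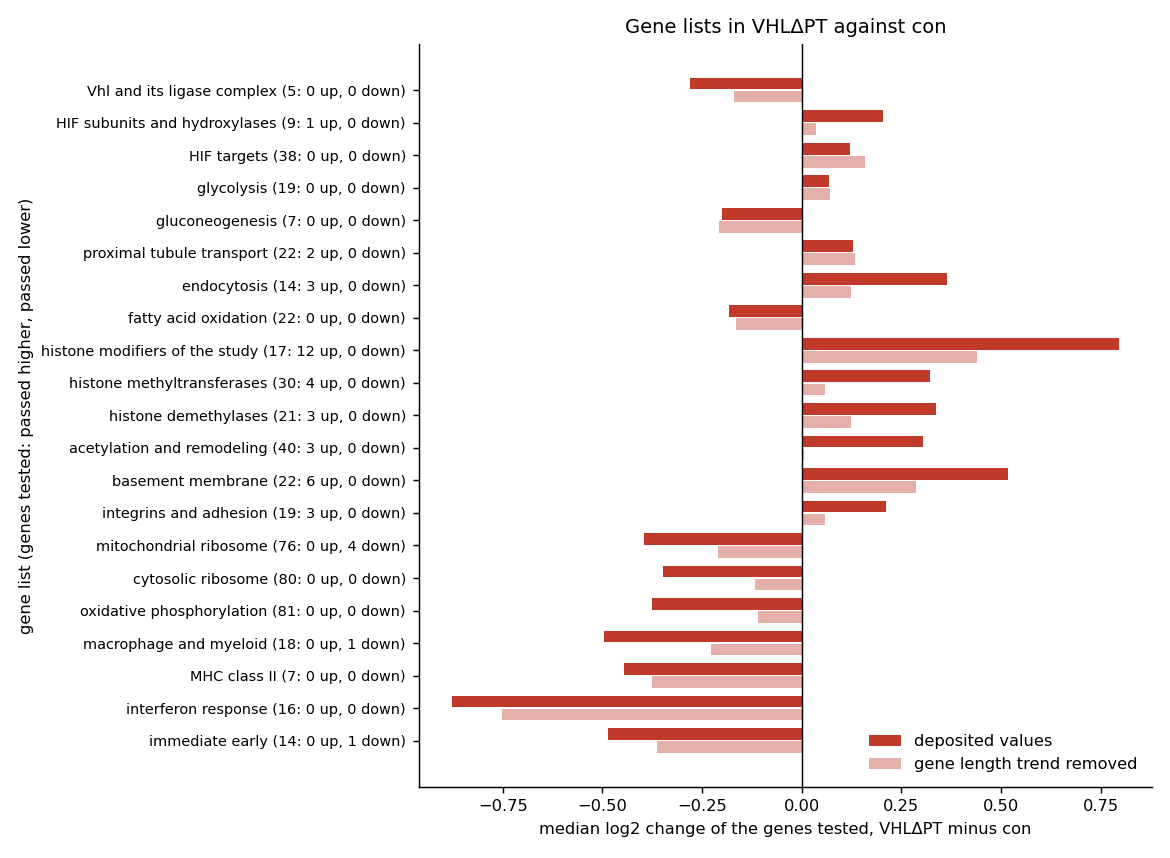
Median log2 change of VHLΔPT minus con over the genes tested of each list, from the deposited values (dark bars) and with the gene length trend removed (light bars), with the number of genes tested and passed in each list. From the deposited values, histone modifiers picked by the study have the highest median of the lists shown (0.80, or 0.44 with the trend removed) and interferon-response genes the lowest (-0.88, or -0.75), which is -0.20 without con 3.

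Genes of ribosomes and respiration lay mostly below con, by small amounts. Of 76 mitochondrial ribosomal proteins 4 fell (5.26%, against 0.658% of all genes) and none rose (2.43% of all genes). All 76 changes were negative (median -0.40, or -0.21 with the length trend removed). Their median length was 2394 bases, which lies in a length bin whose median change over all its genes was -0.19. Mrpl21 had 639 and 612 in VHLΔPT, against 855, 844 and 1026 in con (adjusted p = 0.0474). None of 80 cytosolic ribosomal proteins and none of 81 subunits of oxidative phosphorylation passed, while 39 and 45 of them were lower (48.8% and 55.6%, against 13.2% of all genes) and none higher (14% of all genes) at an unadjusted p under 0.05. With the length trend removed 8 and 13 were lower and none higher at that p, while 2594 of 14415 genes passed it in either direction. The medians of these lists were -0.35 and -0.38, or -0.12 and -0.11 with the trend removed. Their transcripts are short, with median lengths of 1775.5 and 1587 bases.

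Most immune genes had negative changes, of which few passed. Among 18 macrophage and myeloid genes Fcgr4 fell (5.56%, against 0.658% of all genes) and none rose. At an unadjusted p under 0.05, 7 were lower (38.9%, against 13.2% of all genes) and none higher. Their median was -0.50, or -0.23 with the length trend removed, where 4 were lower at that p and none higher. C1qa, a complement component made by macrophages, had 294 and 443 in VHLΔPT, against 559, 567 and 882 in con (adjusted p = 0.0745). The summed level of the 18 genes was 4774 and 5446 in VHLΔPT, against 5861 to 7261 in con, and none was under 1 in any library. None of 16 interferon-response genes passed, with 3 lower (18.8%, against 13.2% of all genes) and none higher at an unadjusted p under 0.05. Their median of -0.88 was -0.20 without con 3, a setting chosen after seeing the data. Isg15, a ubiquitin-like protein induced by interferon, had 50.3 and 46.1 in VHLΔPT, against 74.6, 88.0 and 468 in con, and the summed level of the 16 genes was 2560.1 and 3311 in VHLΔPT, against 3176, 3458 and 12561 in con, with con 3 far above the rest. Of 14 immediate early genes 1 fell (7.14%, against 0.658% of all genes). It was Klf2, a factor of endothelium induced by flow, with 385 and 308 in VHLΔPT, against 589, 547 and 549 in con (-0.70, adjusted p = 0.0457). None of 12 injury and none of 14 fibrosis genes passed. At an unadjusted p under 0.05 no injury gene was higher or lower, against 14% and 13.2% of all genes. By that measure 6 fibrosis genes were higher (42.9%) and 2 lower (14.3%), or 1 and 0 with the length trend removed. In 5 of the 14 the groups did not overlap (35.7%, against 47.4% of all genes). Of the 6, Col1a1 had 515 and 1379 in VHLΔPT, against 340, 540 and 385 in con. Col3a1 had 801 and 2072 in VHLΔPT, against 621, 886 and 693 in con. In Col1a1 and Col3a1, VHLΔPT 1 lay within the range of con, while Fn1, Col5a1 and Col1a2 did not overlap. The median of the fibrosis genes was 0.47, or 0.23 with the length trend removed.

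The Vhl fl/fl;Sglt2-Cre and Vhl fl/fl genotypes were also compared in VHLΔPT/STZ and con/STZ, 4 libraries whose levels form no part of the change between VHLΔPT and con, although they entered the filter on low values and the shared estimate of the spread. Vhl itself had 516 and 516.5 in VHLΔPT/STZ, against 501 and 527 in con/STZ, so that the values overlapped and showed no drop (log2 change 0.01, standard error 0.10). They too count all exons over all cortical cells. The study counted mRNA of exon 1 in SGLT2-positive cells and reported a loss of Vhl in VHLΔPT/STZ as in VHLΔPT. In VHLΔPT/STZ against con/STZ 1 gene passed (Azgp1), and at an unadjusted p under 0.05, 3.09% of all genes were higher and 3.54% lower. Of the 351 genes that rose in VHLΔPT without STZ, 345 (98.3%) were lower in VHLΔPT/STZ than in con/STZ, with a median log2 change of -0.27, and of the 95 that fell, 80 (84.2%) were higher, with a median of 0.19. Over all genes tested 7156 of 14437 (49.6%) were lower. None of the 351 was higher and 138 were lower at an unadjusted p under 0.05. With the length trend removed the shares were 87.4% and 72.6%, with medians of -0.14 and 0.07. The correlation of length with the deviation of a library was 0.184 and -0.058 in VHLΔPT/STZ, against 0.257 and 0.269 in con/STZ, so the length trend between these groups ran the other way. Without con/STZ 2, in which Xist of females was at 3205 (0 to 6.22 in the other 8 libraries), the shares were 98.01% and 83.16%.

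The difference between the 2 effects of the deletion passed for 248 genes, of which 44 had a positive (0.305%) and 204 a negative value (1.41%). This difference is formed with the same VHLΔPT and con libraries as above. For Lcor the normalized count was 178 and 97.4 in VHLΔPT/STZ, against 236 and 244 in con/STZ, so that its con/STZ level was above VHLΔPT without STZ. Hipk2 had 902 and 483 in VHLΔPT/STZ, against 1163 and 1345 in con/STZ. In both genes VHLΔPT/STZ 2 was the lower library. None of the 38 HIF targets passed the test of the difference, with Ankrd37 at 61.0 and 278 in VHLΔPT/STZ, against 78.6 and 49.3 in con/STZ. The calls of this difference fell to 0 to 4 without either VHLΔPT library, con 1, con 3 or either con/STZ library, and to 2 with the length trend removed. They numbered 26 and 707 without VHLΔPT/STZ 2 or VHLΔPT/STZ 1 and 447 without con 2.

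**Figure D5:**
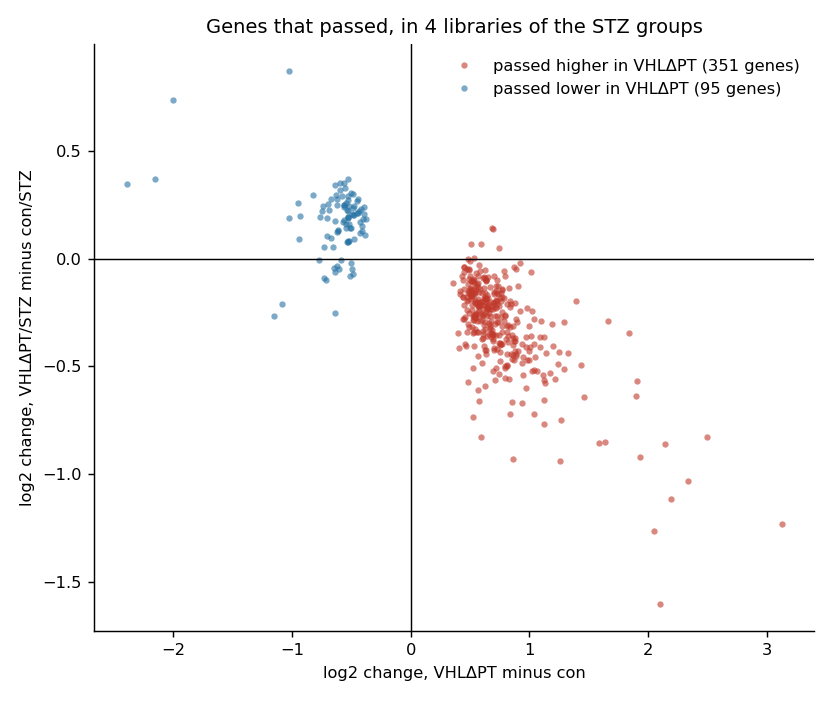
Log2 change of VHLΔPT/STZ minus con/STZ against the log2 change of VHLΔPT minus con for the 446 genes that passed in VHLΔPT minus con. The axes share no library. Of the genes that rose 98.3% lie below 0 on the vertical axis and of those that fell 84.2% lie above it.

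VHLΔPT was also set against con/STZ, which tells where the deletion without STZ and STZ without the deletion differ. Here 191 genes were higher in VHLΔPT (1.32%) and 147 lower (1.02%), and with 1 VHLΔPT or con/STZ library left out 2 to 5 genes passed. Without 1 con library 120 to 215 passed, and without 1 VHLΔPT/STZ library 684 or 686, through the common estimate of the spread. Of the genes with the largest rises over con, Lmbrd2 had 1132 and 1069 in VHLΔPT, against 1045 and 1163 in con/STZ, and overlapped, and Hipk2 had a log2 difference of -0.37 (standard error 0.30, adjusted p = 0.576). A difference that misses the threshold does not show that the levels are equal. Ugt1a2, a glucuronosyltransferase, had 7.00 and 81.3 in VHLΔPT, against 10202 and 9274 in con/STZ (log2 difference -8.57, standard error 1.37, adjusted p = 0.0309). Cyp4a14, a fatty acid hydroxylase induced by PPAR alpha, had 419 and 1105 in VHLΔPT, against 20610.1 and 13258 in con/STZ (-4.60, adjusted p = 0.0335). The VHLΔPT levels of Ugt1a2 and Cyp4a14 overlapped with con, where Ugt1a2 had 10.7, 15.7 and 67.7.
The transporter Slc7a12, the glutathione transferase Gsta1 and Spink6 had log2 differences of -4.97, -4.66 and -3.79. The higher genes were Synpr (difference 5.68), Ctxn3 (4.31), Tmprss9 (3.09), Tc2n (3.08), Gusb (2.88) and Ceacam2 (2.87). Such a difference does not tell whether VHLΔPT lay above con. Ctxn3 had 140 and 201 in VHLΔPT and overlapped with con (138, 170 and 77.6), with 9.33 and 6.00 in con/STZ. Tc2n did not pass against con (adjusted p = 0.39, limma). Gusb, the lysosomal beta-glucuronidase, had 9523 and 8435 in VHLΔPT, against 1314 and 1133 in con/STZ. Ceacam2 had 131 and 129 in VHLΔPT, against 9.33 and 30.2 in con/STZ, and shares sequence with its paralog Ceacam1, so that its reads may be split. Among HIF targets only Car9 passed, with 1016 and 556 in VHLΔPT, against 158 and 147 in con/STZ (2.30, standard error 0.30, adjusted p = 0.0198). In con/STZ 2 Xist, which is expressed from the inactive X of females, was at 3205, against 0 to 6.22 in the other 8 libraries, and the Y-linked Ddx3y was at 498, against 1004.9 in con/STZ 1. The part of this in the differences was not tested. Both con/STZ libraries lay on the same side of VHLΔPT in each of these genes, but the rule that named the largest differences required this. It therefore tells nothing about con/STZ 2.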

How the data were processed

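RNA of kidney cortex (poly(A) selected, stranded) was sequenced by the study in 9 libraries. According to its methods, reads were trimmed with Trim Galore, aligned to GRCm38 with STAR and counted per gene with featureCounts. The deposited signal values are gene counts that the authors quantile-normalized, so every library has nearly the same total (21951722 to 21952234) and its depth is unknown. The tool of this step is not given in the sources used here. Deposited columns of the authors' fold changes and p-values were not used.

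Values were taken as log2(value + 1), which understates the change of low genes. All genes averaging 10 or more across the 9 libraries were fitted with limma 3.58.1 in R 4.3.3, with 4 group means and a trend of variance with mean (5 residual degrees of freedom), and p-values were adjusted over 14437 genes by Benjamini-Hochberg. A gene passed at an adjusted p under 0.05. The fit was tested on simulated data with independent noise in each gene and library and no trend with length. That test cannot tell how a length trend affects the calls. The length trend was removed in each library by a loess curve. P-values measure the spread between pools of 2 mice. Named were the 12 largest rises and falls that passed (mean of at least 50, groups apart, no predicted gene models), the members of the VHL, HIF and study lists, up to 6 members of each other list with the largest change, and the 6 largest in each direction of the other contrasts. A gene that this rule selects is not reported here. Members and lists were chosen with earlier results of these data known. Alternatives were other pseudocounts, filters, scalings, variance models, samples and a replicate block. Promoter windows came from RefSeq (GRCm38.p6).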

Additional observations from a re-analysis of the deposited data

Results flagged for a closer look

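The effect of the deletion differed between mice without and with STZ for 248 genes by the test of the difference (limma, adjusted p under 0.05), given as the log2 change of VHLΔPT/STZ against con/STZ minus that of VHLΔPT against con. Negative differences were found for Zfp871 (-3.33), Lcor (-3.00), Hipk2 (-2.85), Lnpep (-2.53), Atp7a (-2.49), Lmbrd2 (-2.47) and Klhl11 (-2.44). Among histone modifiers they were found for Kmt2a (-1.58), Kmt2c (-1.41), Kat6a (-1.34), Arid4b (-1.31), Ash1l (-1.30), Ep300 (-1.29), Ogt (-1.26), Kmt2d (-1.22) and Huwe1 (-1.05). The study picked these modifiers from these libraries, and the genes before them were among the largest rises. The difference subtracts the change of VHLΔPT against con, so a negative sign was favored in advance. Over all genes tested 1.41% passed with a negative and 0.305% with a positive difference. Positive differences were found for Azgp1 (9.39), Ceacam2 (5.24), Smoc1 (1.90), Tmem119 (1.38), Hsd17b2 (1.20), Rgcc (1.13) and Lrrc8a (0.97). Smoc1, Rgcc and Lrrc8a were among the largest falls, so their positive sign was favored in the same way. Azgp1 was at 1199 and 1358 in VHLΔPT/STZ, against 3.00 and 1.00 in con/STZ, and at 0.667 and 0 in VHLΔPT, against 0.111, 1.11 and 2.00 in con.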

How the results depend on the processing

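The number of genes that passed in VHLΔPT against con was 446. It became 272 with no filter on low values, 691 with a filter at a mean of 50, 1363 with library weights, 280 with a fold over 1.5 in addition and 3928 at an unadjusted p under 0.05. It became 0 in limma without the trend of variance with mean (3630 at an unadjusted p under 0.05), with the length trend removed (2594) and with only the groups compared (3715), and lay between 0 and 771 with 1 library left out. For the difference between the effects without and with STZ the 248 genes became 582 with a filter at a mean of 50, 1 without the variance trend, 580 with library weights, 2 with the length trend removed, 3746 at an unadjusted p and 0 to 707 with 1 library left out. In VHLΔPT against con/STZ the 338 genes became 1 without the variance trend, 1428 with library weights, 1004 with only the groups compared, 2664 at an unadjusted p and 2 to 686 with 1 library left out. In VHLΔPT/STZ against con/STZ the 1 gene became 2 with a pseudocount of 10, 957 at an unadjusted p and 0 to 3 with 1 library left out. The cause of these changes was not tested.

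Libraries of the same replicate number were not shown to be paired, and 4 of 12 correlations of their deviations were over 0.1 (-0.109 to 0.273). Between groups of 2 libraries, replicates 1 and 2 give the same correlation, so the 12 are not separate checks and cannot decide on pairing. With the replicate number as a block, 0 genes passed in VHLΔPT against con (2966 at an unadjusted p under 0.05), 0 for the difference between the effects and 187 in VHLΔPT against con/STZ, and with the length trend removed in addition to the block 0, 0 and 104. No result changed its direction past the threshold in any alternative run, but a run in which 0 genes passed could not show such a change. Of 60 named genes that passed, 60 still passed with a pseudocount of 10 and with median-ratio rescaling, 43 with no filter and 50 without con 2. By contrast, 0 of the 60 passed with the length trend removed, with the replicate block or without the variance trend. The same held with only the groups compared, without con 1 and without con 3. The shares of genes with the other sign under STZ were recomputed under the same alternatives, chosen after seeing the data, and lay between 87.4% and 98.9% for the rising and between 72.6% and 89.47% for the falling genes. Read depth is unknown, so no counting error could be given.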
